A study of Mus musculus with 2 samples.

Results

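Fenestrated endothelial cells were the 211 cells, of 19161 cells kept in 2 single-cell libraries of mouse brain, whose unique molecular identifiers (UMIs, 1 per captured RNA molecule) passed an endothelial gate together with Plvap and without genes of the blood-brain barrier. Kept cells had 1000 UMIs or more over 500 genes or more, and a mitochondrial share of up to 10%. The endothelial gate asked for at least 3 UMIs summed over Cldn5, Pecam1, Flt1, Cdh5 and Esm1, at most 2 over the mural genes Rgs5 and Vtn, and none of the leukocyte gene Ptprc, and it held 4137 cells. Fenestrated cells had in addition at least 3 UMIs of Plvap and at most 2 summed over Slco1a4, Abcb1a and Mfsd2a. There were 93 in the homozygous-labelled library and 118 in the heterozygous-labelled library.

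The study prepared sorted vascular cells, astrocytes, border-associated macrophages and microglia from whole brains of adult mice for 3′ single-cell sequencing. The homozygous-labelled library came from mice of genotype IL34LacZ/LacZ, which carry a lacZ allele at both copies of Il34, the gene of the macrophage growth factor interleukin-34, and the heterozygous-labelled library from IL34LacZ/+ mice with 1 such copy. No wild-type mice are among these groups, and all of them carry the lacZ allele. The endothelial cells were sorted by CD31, the protein of Pecam1 on their surface. The labels state neither the number and sex of the animals nor the proportions in which the sorted cells were mixed.

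Capillary endothelium is fenestrated where blood and tissue exchange solutes freely, as in the choroid plexus, the circumventricular organs and endocrine glands. Its pores are spanned by diaphragms made of the protein of Plvap, and such vessels depend on signalling by vascular endothelial growth factor (VEGF). In most of the brain the endothelium instead forms the blood-brain barrier, with tight junctions, nutrient and efflux carriers and few vesicles, a state kept up by Wnt signalling.

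The promoters of 3 genes that marked the fenestrated cells and of 1 barrier carrier are shown because these genes, picked with their values known from those with a sequence in the table, lay far apart between fenestrated and barrier endothelium. They are RefSeq sequences of GRCm38.p6, each 300 bases, covering 250 bases before and 50 bases after the start of the gene, written 5′ to 3′ on the gene's strand. Capitals mark GGAA and its reverse complement TTCC, the core bound by ETS factors, which include the endothelial regulators Erg, Fli1 and Ets1. Esm1, an endothelial proteoglycan, is at chr13:113209409-113209708 on the + strand. Btnl9, a butyrophilin-like surface protein, is at chr11:49187040-49187339 on the - strand. Col13a1, a transmembrane collagen, is at chr10:61979059-61979358 on the - strand. Slco1c1, the barrier carrier of thyroxine, is at chr6:141524104-141524403 on the + strand.
Esm1: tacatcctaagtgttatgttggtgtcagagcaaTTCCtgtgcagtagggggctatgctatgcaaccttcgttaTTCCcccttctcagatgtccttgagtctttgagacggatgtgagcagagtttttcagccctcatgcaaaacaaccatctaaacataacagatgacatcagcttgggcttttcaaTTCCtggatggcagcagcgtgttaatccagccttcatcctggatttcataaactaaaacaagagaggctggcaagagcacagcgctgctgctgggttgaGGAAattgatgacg
Btnl9: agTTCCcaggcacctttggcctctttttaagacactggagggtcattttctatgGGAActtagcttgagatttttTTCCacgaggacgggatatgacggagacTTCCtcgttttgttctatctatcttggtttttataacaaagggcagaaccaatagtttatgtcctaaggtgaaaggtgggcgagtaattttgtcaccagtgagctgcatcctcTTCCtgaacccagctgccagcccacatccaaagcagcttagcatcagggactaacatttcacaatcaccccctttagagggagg
Col13a1: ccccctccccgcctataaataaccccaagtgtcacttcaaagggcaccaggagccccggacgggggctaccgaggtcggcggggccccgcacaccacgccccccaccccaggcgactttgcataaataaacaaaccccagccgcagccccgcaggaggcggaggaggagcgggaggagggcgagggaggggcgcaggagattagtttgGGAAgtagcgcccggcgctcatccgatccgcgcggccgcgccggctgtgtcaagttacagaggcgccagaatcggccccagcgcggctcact
Slco1c1: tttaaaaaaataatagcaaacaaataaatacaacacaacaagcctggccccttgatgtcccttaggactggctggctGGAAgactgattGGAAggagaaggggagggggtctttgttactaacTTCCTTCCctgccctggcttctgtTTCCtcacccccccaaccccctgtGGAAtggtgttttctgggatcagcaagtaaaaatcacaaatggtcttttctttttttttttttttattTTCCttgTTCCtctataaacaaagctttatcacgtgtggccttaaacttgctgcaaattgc
The core matched 4 times in the window of Esm1, 5 times in that of Btnl9, once in that of Col13a1 and 8 times in that of Slco1c1. It is short and common: 96.0% of 32841 promoter windows of this length held it on either strand, with a median of 3 matches. CTTTG or its reverse complement CAAAG, the core of TCF/LEF factors through which Wnt signals act, was in 53.9% of the windows. The TCF/LEF core matched once in the window of Esm1, 3 times in Btnl9, 2 times in Col13a1 and 2 times in Slco1c1. Matches of each motif were counted on both strands whether or not they overlapped the other motif. They describe the letters of the windows only. Of the 15 genes farthest higher in fenestrated cells (named with their values below), 9 had a sequence in the table, of which 9 held the ETS core and 8 the TCF/LEF core; of the 15 farthest lower, 12 had one, with 12 and 8.

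The markers of the label are Plvap, Esm1 and the endothelial surface receptor Cd300lg. The first 2 chose the cells, so only Cd300lg, which the gate did not use, could check the label. It had 455 CPM (UMIs per 1000000 of all UMIs of the cell class in a library) in the homozygous-labelled fenestrated cells and 629 CPM in the heterozygous-labelled ones. Barrier endothelial cells, taken from the same gate with at most 2 UMIs of Plvap and at least 3 of the barrier genes, had 1.60 CPM in the homozygous-labelled and 3.51 CPM in the heterozygous-labelled library. There were 1672 and 1553 such cells. Cd300lg was found in 57 of 93 homozygous-labelled and 95 of 118 heterozygous-labelled fenestrated cells. After each cell was thinned to 1000 UMIs, Cd300lg was seen in 37.6% and 48.3% of fenestrated cells, against 0.478% and 0.515% of barrier cells, which serve as the background of a cell type taken to lack the gene. Plvap lies at chr8:71497765-71511752 on the - strand and Cd300lg at chr11:102041509-102055620 on the + strand (GRCm38, GENCODE vM21).

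The libraries held 95505407 UMIs over 18858 barcodes (homozygous-labelled) and 87394167 UMIs over 17168 barcodes (heterozygous-labelled), and 103 barcodes occurred in both, none of them a fenestrated cell. Fenestrated cells held 373259 UMIs in the homozygous-labelled library, with a median of 2995 per cell, and 423051 UMIs in the heterozygous-labelled library, with a median of 2944.5. Their median mitochondrial share was 3.46% and 2.71%, against 5.39% and 5.22% in barrier cells. Doublets were kept, because the gate has no doublet step; Scrublet called 3 homozygous-labelled and 4 heterozygous-labelled fenestrated cells. Choroid plexus epithelial cells, recognised by at least 5 UMIs over Folr1, Kcnj13, Kl, Otx2 and Clic6, were 6.41% of the homozygous-labelled and 12.2% of the heterozygous-labelled cells kept. Ttr, their most abundant transcript, had a UMI in every fenestrated cell, and after thinning in 89.2% and 95.8% of fenestrated cells, against 92.5% and 97.9% of barrier cells.

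With 1 library per genotype there was no replicate, so no test between genotypes was possible. Intervals are exact 95% intervals that cover counting error only. They leave out the spread between animals, sorts and library preparations, and UMIs that share a cell are not independent.

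**Figure D1:**
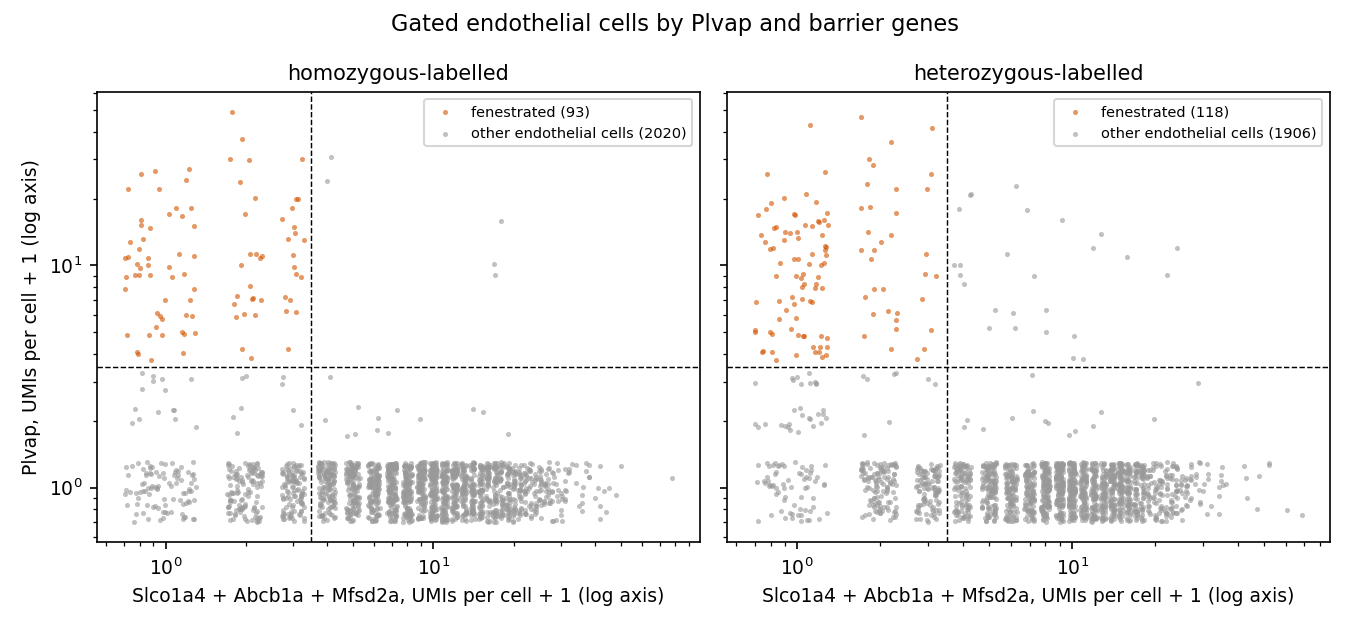
Each point is a cell of the endothelial gate, with UMIs of Plvap on the vertical axis and UMIs of Slco1a4, Abcb1a and Mfsd2a summed on the horizontal axis, both plus 1 on log axes with jitter, homozygous-labelled left and heterozygous-labelled right. The 93 and 118 fenestrated cells (orange) lie above and left of the dashed thresholds, and 5 and 26 cells lie above and right of them.

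The genes of the gate chose the cells, so their levels are a description. Plvap had a median of 9 UMIs per fenestrated cell in both libraries, with 3 to 48 UMIs in homozygous-labelled cells and 3 to 46 in heterozygous-labelled cells. Its level was 2792 CPM (homozygous-labelled) and 3033 CPM (heterozygous-labelled). Esm1 had 806 and 901 CPM, and Flt1, a VEGF receptor, had 3496 and 4430 CPM. Cldn5, the main claudin of barrier tight junctions, had 96.4 and 33.1 CPM, against 2145 and 2745 CPM in barrier cells; 20 of its 36 homozygous-labelled UMIs lay in 1 cell. Mfsd2a, the lipid carrier that restrains transcytosis at the barrier, had no UMI in any fenestrated cell.

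Cells just inside and just outside the thresholds were few. In the homozygous-labelled library 7 cells had exactly 3 UMIs of Plvap, with 233 CPM of Cd300lg, and 11 cells with 2 UMIs of Plvap, outside the gate, had 196 CPM. In the heterozygous-labelled library 15 cells had 3 UMIs of Plvap, with 562 CPM of Cd300lg, and 16 cells with 2 UMIs, outside the gate, had 468 CPM. Cells with no UMI of Plvap and at most 2 barrier UMIs had 2.40 and 4.58 CPM of Cd300lg. In Cd300lg, the cells just outside the threshold lay nearer to those just inside it than to the cells with no Plvap UMI.

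Fenestrated cells made up 4.40% (interval 3.57 to 5.37) of the 2113 gated endothelial cells of the homozygous-labelled library and 5.83% (4.85 to 6.94) of the 2024 of the heterozygous-labelled library. At these thresholds the intervals overlapped. With a mitochondrial limit of 5% the shares were 8.43% and 10.9%, and with a barrier sum of 0 they were 2.46% and 4.10% (52 and 83 cells). These alternatives are given without intervals, so the overlap is stated for the main thresholds only. Of all cells kept, they were 0.899% (0.726 to 1.10) in the homozygous-labelled and 1.34% (1.11 to 1.60) in the heterozygous-labelled library. These intervals did not overlap, and they too cover counting error only. These shares also depend on how the CD31 sort and the mixing were done, and choroid plexus epithelial cells, the epithelium beside fenestrated vessels, differed in the same direction; their part in the shares was not tested. Cells with at least 3 UMIs both of Plvap and of the barrier genes were 5 of 2113 (0.237%, interval 0.0769 to 0.551) in the homozygous-labelled library and 26 of 2024 (1.28%, 0.841 to 1.88) in the heterozygous-labelled library.

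Set against barrier endothelial cells of the same library, the fenestrated cells had more RNA of most measured genes on the peripheral capillary list and less of most on the barrier nutrient carrier list in both libraries. A gene was counted when it had at least 50 UMIs in each library, a ratio of at least 2 in the same direction in both and intervals without 1. Of 10017 genes, 396 were higher (3.95%) and 629 lower (6.28%) in fenestrated cells. The classes were made from the same cells, so these counts and values are a description. Genes of the lists below were counted at a ratio of at least 1.5 in both libraries, which 7.81% of all genes reached upwards and 14.4% downwards.

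Of the 15 genes farthest higher in fenestrated cells, the one with the highest CPM was Igfbp3, a secreted IGF-binding protein, with 2612 CPM in homozygous-labelled and 1969 CPM in heterozygous-labelled fenestrated cells, against 11.4 and 21.9 CPM in barrier cells. Of its 975 homozygous-labelled UMIs, 456 lay in the 22 cells of the Meis2 subcluster described below. Cd24a, a surface sialoglycoprotein, had 1064 and 1733 CPM against 19.1 and 22.6 CPM. Col13a1 had 447 and 548 CPM against 0.875 and 1.75 CPM, and was found in 66 of 93 and 86 of 118 cells. Other genes of the 15, outside the lists below, were Fam167b, Exoc3l2, Car8, Slc43a3, Tnfaip2, Thrsp and Gm13889, with ratios of 55.1 to 375 in the homozygous-labelled library. Each of these 7 was found in at least 35 homozygous-labelled and 54 heterozygous-labelled cells. Among the lower ones, Spock2, a proteoglycan, had 32.1 and 21.3 CPM against 1534 and 1783 CPM, Pglyrp1, a peptidoglycan recognition protein, 13.4 and 11.8 CPM against 700.2 and 832 CPM, and the growth factor Ptn 88.4 and 92.2 CPM against 2123 and 1919 CPM. Vwf, the platelet adhesion glycoprotein, had 0 UMIs in homozygous-labelled and 2 in heterozygous-labelled fenestrated cells, and its homozygous-labelled level was at least 23.5-fold lower than 189 CPM in barrier cells, with 0 read as 3 counts over the fenestrated cells of the library. Ccdc141, Slc22a8, an organic anion carrier, the surface glycoprotein gene Prom1 and Gatm, an enzyme of creatine synthesis, had 2 to 6 UMIs in the fenestrated cells of each library and 203 to 443 CPM in barrier cells. Gm37393 had 0 UMIs in the fenestrated cells of both libraries, at least 11.4-fold and 14.0-fold lower than in barrier cells.

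Genes of peripheral capillaries and lipid handling had 11 of 13 measured members higher and none lower. Their median ratio was 3.61 in the homozygous-labelled and 8.54 in the heterozygous-labelled library, against 0.967 and 0.927 over all genes. Btnl9 had 488 CPM in homozygous-labelled and 570 CPM in heterozygous-labelled fenestrated cells, against 0.292 and 1.58 CPM in barrier cells. Gpihbp1, which carries lipoprotein lipase to the capillary lumen, had 407 and 723 CPM, against 1.17 and 1.58 CPM. Rbp7, a retinoid-binding protein, had 472 and 652 CPM, against 0.875 and 2.46 CPM. Plpp1 and Plpp3, phosphatases of lipid phosphates, were 34.1 and 5.35 times the barrier level in the homozygous-labelled library and 44.2 and 13.4 times in the heterozygous-labelled library. Car4, a carbonic anhydrase of capillary surfaces, was not among the higher members, with ratios of 0.799 and 0.781.

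Diaphragm and caveola genes were mixed. Of 11 measured members 4 were higher and 2 lower. Ehd4, a membrane-remodelling ATPase, had the largest ratio in both libraries among these members, which leave out the gate genes Plvap and Mfsd2a, with 1283 and 1730 CPM in fenestrated cells against 45.4 and 72.3 CPM in barrier cells. Cav1, the scaffold of caveolae, had 206 and 269 CPM, against 278 and 294 CPM.

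The VEGF receptor Kdr and its co-receptor Nrp1 were higher in fenestrated cells. Of 17 measured members of the VEGF and tip cell list 9 were higher and 2 lower. Kdr, the main signalling receptor for VEGF, had 2810 and 3678 CPM in fenestrated cells and 372 and 467 CPM in barrier cells. Nrp1 had 2119 and 3227 CPM, against 327 and 345 CPM. The ligand Vegfa had only 7 and 12 UMIs in fenestrated cells. Pgf, another ligand of Flt1, was one of the lower members, with 0 and 2 UMIs.

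Barrier carriers were low. Of 18 nutrient carriers and receptors 16 were lower and none higher, with median ratios of 0.121 and 0.0660. Slc2a1, the glucose carrier of the barrier, had 58.9 and 37.8 CPM in fenestrated cells against 684 and 857 CPM in barrier cells. Slc7a1, a cationic amino acid carrier, had 8.04 and 14.2 CPM against 396 and 452 CPM. Tfrc, the transferrin receptor, had 8.04 and 18.9 CPM against 348 and 401 CPM. Slc38a5, an amino acid carrier, had 0 and 1 UMIs; its homozygous-labelled level was at least 14.8-fold lower than the 119 CPM of barrier cells, with 0 read in the same way. Of 8 efflux and organic anion carriers 4 were lower, among them Slco1c1 with ratios of 0.0549 and 0.0312, and Abcg2 with 0.450 and 0.409.

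Genes of the Wnt pathway had 11 of 17 measured members lower and 2 higher. The transcription factor Lef1 had 8.04 and 16.5 CPM in fenestrated cells against 329 and 390 CPM in barrier cells, and Apcdd1, a Wnt target and inhibitor, had 13.4 and 2.36 CPM against 240 and 258 CPM. The higher ones were the receptor Fzd4, at ratios of 2.94 and 2.95, and its partner Tspan12, at 5.53 and 5.23. Axin2, a feedback inhibitor, and Nkd1, a pathway antagonist, were also among the lower members. They had 10.7 and 8.04 CPM in homozygous-labelled and 2.36 and 2.36 CPM in heterozygous-labelled fenestrated cells. A level of 3 counts was 8.04 and 7.09 CPM in the 2 libraries, so both genes rest on a few UMIs.

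Junction genes were split. Of 13 measured members 3 were higher and 4 lower. Ocln and Lsr, which belong to sealed tight junctions, had ratios of 0.0810 and 0.0682 in the homozygous-labelled and 0.0257 and 0.0227 in the heterozygous-labelled library. Jam3, a junctional adhesion molecule, had 198 and 407 CPM in fenestrated cells, against 18.5 and 13.5 CPM in barrier cells. Matrix genes were higher in 8 of 19, with Col15a1 at ratios of 51.3 and 55.6 and the perlecan gene Hspg2 at 10.5 and 9.33, while Fn1 was lower at 0.0409 and 0.0338.

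MHC class I genes were higher in 9 of 12 measured members and lower in none, with median ratios of 2.50 and 2.01. H2-K1 had 1479 and 1099 CPM in fenestrated cells and 474 and 426 CPM in barrier cells. Some receptors of vasoactive peptides were also higher: Ednrb, an endothelin receptor, had 292 and 267 CPM against 9.48 and 14.6 CPM, and Ramp3, a partner of the calcitonin receptor-like receptor, had 391 and 480 CPM against 9.62 and 15.4 CPM. The vasoactive list as a whole had 7 of 15 measured members higher and 6 lower, with Edn1, the endothelin ligand, at 5 and 2 UMIs among the lower ones. Fenestrated cells had few UMIs of venous markers (61 and 43 over 9 genes), and Ackr1, a chemokine-binding protein of venules, had 0 and 3. The proliferation marker Mki67 had 2 UMIs in homozygous-labelled and 1 in heterozygous-labelled fenestrated cells, and of 5 measured cell cycle genes 1 was higher and 2 lower.

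Endothelial regulators were divided. Of 28 measured transcription factors 9 were higher and 8 lower. Sox18, an endothelial SOX factor, had 764 and 1007 CPM in fenestrated cells against 294 and 309 CPM in barrier cells, and Meox1, a homeobox factor, had 126 and 206 CPM against 7.15 and 9.65 CPM. Foxq1 and Foxc1, forkhead factors of brain vessels, had ratios of 0.0614 and 0.206 in the homozygous-labelled and 0.0805 and 0.152 in the heterozygous-labelled library. The ETS factor Erg had ratios of 1.22 and 1.29, below the 1.5-fold count.

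Notch pathway genes were higher in 5 of 9 and lower in 1, with the ligand Dll4 at 67.0 and 89.8 CPM against 20.1 and 30.7 CPM and the ligand Jag1 as the lower one. TGF-beta and BMP genes were higher in 8 of 18 and lower in 2, with the co-receptor Eng at 975 and 1154 CPM against 296 and 364 CPM. Leukocyte adhesion genes were higher in 5 of 10 and lower in 5. Emcn, a capillary and venous sialomucin, had 2762 and 3465 CPM against 325 and 449 CPM, and Vcam1, an adhesion molecule for integrins, had 8 and 1 UMIs. Interferon response genes were higher in 8 of 25 and lower in 3, IGF pathway genes in 3 and 4 of 11, and hypoxia and glycolysis genes in 1 and 2 of 15. Immediate-early and heat shock genes were higher in 2 and lower in 3 of 20, MHC class II genes higher in 0 and lower in 2 of 6, and of the IL-34 and CSF1 axis and the sex-linked genes 0 of 3 and 0 of 8 were counted in either direction.

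**Figure D2:**
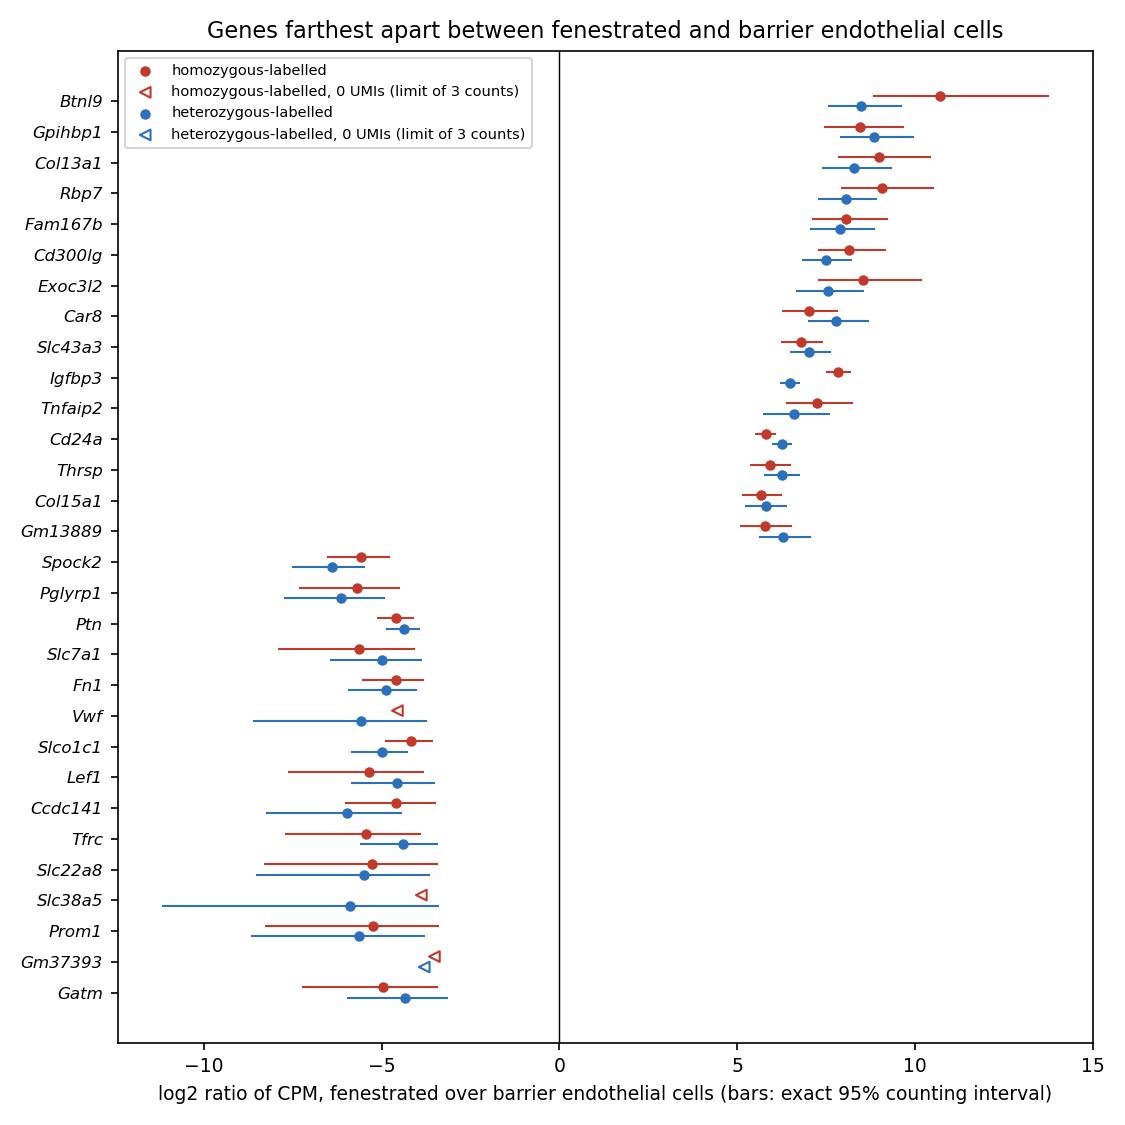
The log2 ratio of CPM in fenestrated over barrier endothelial cells is shown for the 15 higher and 15 lower genes whose interval bound nearest to 1 lay farthest from 1, in the homozygous-labelled (red) and the heterozygous-labelled (blue) library, with exact 95% counting intervals. Open triangles mark genes with 0 UMIs, placed at the level of 3 counts; every gene lies on the same side of 0 in both libraries.

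The fenestrated cells varied among themselves. When they were split into 3 bins by Plvap per 10000 UMIs, Kdr had 1928, 3759 and 3432 CPM in the lowest, middle and highest bin of the homozygous-labelled library, and 2914, 3818 and 4346 CPM in those of the heterozygous-labelled library. Cd300lg had 307, 677 and 498 CPM in the homozygous-labelled and 424, 645 and 832 CPM in the heterozygous-labelled bins. Barrier nutrient carriers summed to 1604, 1617 and 1919 CPM in the homozygous-labelled and to 1698, 1547 and 1749 CPM in the heterozygous-labelled bins. Of single barrier carriers, Slc2a1 had 91.0, 40.4 and 20.3 CPM in the homozygous-labelled and 49.5, 26.3 and 38.5 CPM in the heterozygous-labelled bins, and Slco1c1 had 91.0, 10.1 and 20.3 CPM and 49.5, 19.7 and 30.8 CPM. Both were thus highest in the bin with least Plvap, while the sum was not, but they rested on 22 and 16 UMIs of Slc2a1 and 19 and 14 of Slco1c1 in the 2 libraries, and the 19 homozygous-labelled UMIs of Slco1c1 lay in 5 cells. Bins share the counts of their cells, and Plvap chose the cells. The lowest homozygous-labelled bin, of 175818 UMIs, held the 3 homozygous-labelled cells of at least 10000 UMIs. These had 38950, 21219 and 11241 UMIs, and those of 38950 and 21219 UMIs were called doublets. Their part in the values of that bin was not tested.

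Leiden clustering of the 211 cells (resolution 0.5) gave 4 subclusters. Subcluster 1 held 48 homozygous-labelled and 86 heterozygous-labelled cells. Subcluster 2, with more of the non-coding RNA Snhg11, held 14 and 21, and 40.2% of its Snhg11 UMIs lay in 1 cell. Subcluster 4, with Ttr among its leading genes, held 9 of each, and 73.5% of its Ttr UMIs lay in 1 cell. Subcluster 3, led by the transcription factor Meis2, held 22 homozygous-labelled and 2 heterozygous-labelled cells, which were 23.7% (15.5 to 33.6) and 1.69% (0.206 to 5.99) of the fenestrated cells of their library. A subcluster found mostly in 1 library may be that library and not a cell type, and it was given no type name. At resolutions 0.3 and 1, the corresponding groups held 23 and 25 cells, of which 23 and 23 were the same cells.

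The Meis2 subcluster was defined by its genes, so these are given as values. Meis2 had 2092 CPM in the 22 homozygous-labelled cells of the subcluster and 36.8 CPM in the other 71 homozygous-labelled fenestrated cells, against 21.5 CPM in the 116 heterozygous-labelled cells outside it. Igfbp5, an IGF-binding protein, had 2740, 257 and 83.6 CPM in the same 3 groups, and Igfbp3 had 6155, 1735 and 1979 CPM. The cells of the subcluster had Plvap at 4090 CPM, above 2470 CPM in the other homozygous-labelled cells. Without the unusual cells described below, these other cells had 3056 CPM of Plvap. They carried a UMI of Cd300lg in 1 of 22 cells, of Car4 in 1 of 22 and of Rbp7 in none, against 56, 48 and 41 of the other 71 cells. Esm1 was found in 3 of the 22 cells and in 44 of the other 71. Of these 4 genes, each was thus seen in a smaller share of the subcluster than of the other homozygous-labelled cells, while Plvap was not lower.

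Across all fenestrated cells, Meis2 was seen in 26 of 93 homozygous-labelled and 8 of 118 heterozygous-labelled cells. After thinning to 1000 UMIs the shares were 20.4% (12.8 to 30.1) and 2.54% (0.527 to 7.25), against 1.32% and 0.966% of barrier cells.

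**Figure D3:**
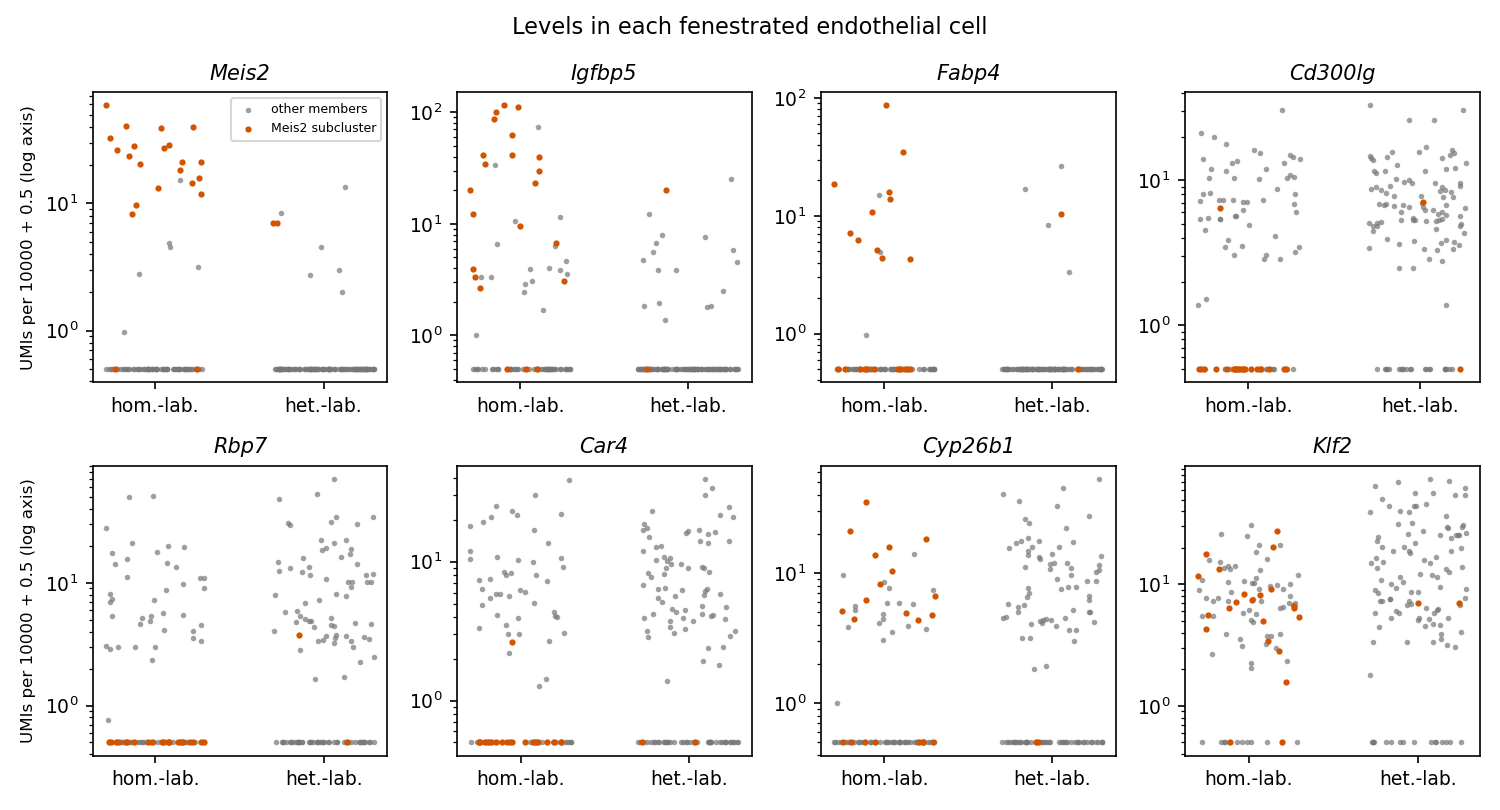
Each point is 1 fenestrated cell, with the level of a gene in UMIs per 10000 plus 0.5 on a log axis, homozygous-labelled (hom.-lab.) left and heterozygous-labelled (het.-lab.) right; orange marks the 22 and 2 cells of the Meis2 subcluster and the lowest row of points is 0 UMIs. The highest levels of Meis2, Igfbp5 and Fabp4 are in orange points of the homozygous-labelled library, Cd300lg, Rbp7 and Car4 are mostly at 0 in them, and Cyp26b1 is more often above 0 in heterozygous-labelled cells.

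The homozygous-labelled and heterozygous-labelled fenestrated cells differed in a minority of genes, and many of the largest ratios rested on single cells. Counted genes held 50 UMIs or more in the 2 libraries together and differed 2-fold or more, with an interval without 1. Of 3004 genes, 80 were higher (2.66%) and 30 lower (0.999%) in the homozygous-labelled cells. The split depended on the scaling, with 66 higher and 45 lower under TMM and 62 higher and 51 lower under median-of-ratios scaling. Of the 80 higher genes, 16 had at least 50% of their UMIs in 1 cell and 17 had under 10% in any cell; of the 30 lower genes, 5 and 22. The median ratio of all 3004 genes was 0.975.

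Among the lower genes spread over many cells, Cyp26b1, the enzyme that breaks down retinoic acid, had the lowest upper bound. It lies at chr6:84571414-84593908 on the - strand (GRCm38). It had 180 CPM (139 to 228) in homozygous-labelled and 622 CPM (549 to 702) in heterozygous-labelled fenestrated cells, a ratio of 0.289 (0.217 to 0.379). A UMI of Cyp26b1 was found in 33 of 93 homozygous-labelled and 69 of 118 heterozygous-labelled cells, with at most 5 and 13 UMIs in a cell. Outside the Meis2 subcluster it had 110 and 629 CPM, and within it 459 CPM in homozygous-labelled cells. In barrier cells Cyp26b1 had 4.96 and 7.37 CPM. Tcf15, a transcription factor of capillary endothelium that handles fatty acids, had 21 and 64 UMIs and a ratio of 0.372 (0.216 to 0.617). Both genes kept ratios under 1 when the Meis2 subcluster and the unusual cells described below were left out, at 0.202 and 0.416.

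Klf2, a transcription factor induced by blood flow, had 705 CPM (622 to 795) in homozygous-labelled and 1652 CPM (1532 to 1779) in heterozygous-labelled fenestrated cells, a ratio of 0.426 (0.369 to 0.492). It was found in 79 of 93 and 102 of 118 cells. In barrier cells the ratio of Klf2 was 0.749 (0.725 to 0.773); the difference between the 2 ratios was not tested. Junb had a ratio of 0.436 (0.337 to 0.559) in fenestrated and 0.748 (0.707 to 0.791) in barrier cells, and Nr4a1 0.287 (0.164 to 0.480) and 0.687 (0.589 to 0.801). Junb and Nr4a1 are immediate-early genes, which respond within minutes to growth factors and to tissue dissociation.

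Immediate-early and heat shock genes were lower in 11 of 18 measured members at 1.5-fold or more and higher in 1, where 7.09% and 8.75% of all genes passed 1.5-fold downwards and upwards. Their median ratio was 0.616. Fos had 453 and 749 CPM, Jun 1460 and 2307 CPM, and Hspa1a 289 and 558 CPM. Hsp90aa1, a stress-inducible chaperone, was the higher one, at 887 CPM in homozygous-labelled and 329 CPM in heterozygous-labelled cells, with 30.9% of its UMIs in 1 cell. In barrier cells Fos had a ratio of 0.958, Hspa1a of 1.03 and Hsp90aa1 of 1.06. Without the Meis2 subcluster and the unusual cells, 6 of 18 members were lower and 1 higher and the median was 0.689, where 6.65% of 2239 genes were lower and 4.73% higher. A difference in handling between the libraries cannot be told apart from genotype.

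**Figure D4:**
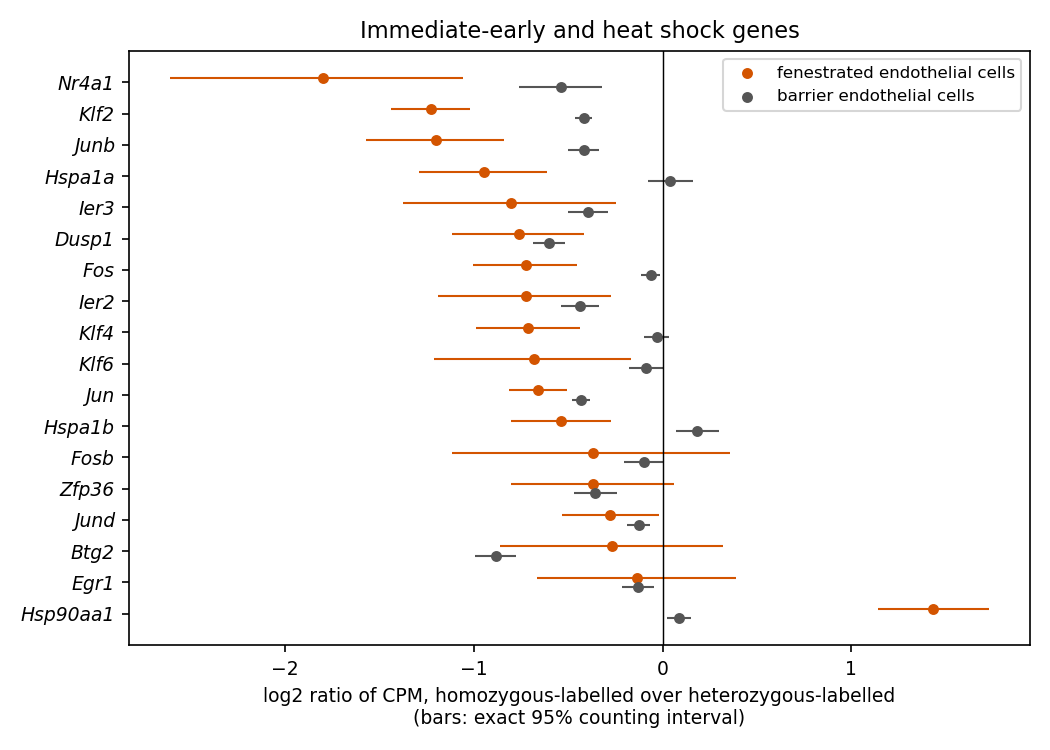
Log2 ratios of CPM, homozygous-labelled over heterozygous-labelled, are shown for 18 immediate-early and heat shock genes with exact 95% counting intervals, in fenestrated (orange) and barrier (grey) endothelial cells. In fenestrated cells 17 of 18 ratios lie under 0 and Hsp90aa1 lies above it.

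The peripheral capillary list had 4 of 10 measured members lower and 1 higher in the homozygous-labelled cells, with a median ratio of 0.736. Gpihbp1 had a ratio of 0.563 (0.460 to 0.686), Plpp3 of 0.631 (0.586 to 0.680), and Fabp4, a fatty acid-binding protein, of 5.61 (3.40 to 9.73). Of the 94 homozygous-labelled UMIs of Fabp4, 83 lay in the Meis2 subcluster. Without the subcluster and the unusual cells the list had 2 of 9 members lower, none higher, and a median of 0.834. Of 18 measured endothelial transcription factors 5 were lower (Klf2, Klf4, Meox1, Tcf15 and Foxo1) and 1 higher. The higher one was Sox17, at 1.68 (1.06 to 2.70). Klf2 and Klf4 are also on the immediate-early list, and Meox1 and Tcf15 on the peripheral capillary list, so these lists share lower members. Without the subcluster and the unusual cells, 2 of 16 were lower, namely Klf2 and Tcf15, and Sox17 was higher at 2.80 (1.58 to 5.10); Klf4, Meox1 and Foxo1 then had ratios of 0.677, 0.852 and 0.699, short of 1.5-fold. VEGF receptors had ratios of 0.764 for Kdr and 0.657 for Nrp1, and 1 of 9 measured members of that list was lower, Nrp1, and 1 higher. Nrp1 had 648 CPM in the homozygous-labelled cells of the Meis2 subcluster and 2484 CPM in the other homozygous-labelled cells. Without the subcluster and the unusual cells Kdr had a ratio of 0.950 and Nrp1 of 0.863, and the 1 lower member was Dll4, at 0.588 (0.294 to 1.11).

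Plvap itself had a ratio of 0.920 (0.847 to 0.9997) and Cd300lg of 0.724 (0.594 to 0.881). Without the Meis2 subcluster and the unusual cells, Cd300lg had a log2 ratio of 0.030. Diaphragm and caveola genes had 1 of 8 measured members lower and none higher. The median over MHC class I genes was 1.18, with 1 of 10 higher. IGF pathway genes had 3 of 7 higher and none lower, namely Igfbp5, Insr and Igf1r, the last 2 being receptors at ratios of 1.96 and 1.71. Of the homozygous-labelled UMIs, 203 of 280 of Igfbp5, 54 of 109 of Insr and 12 of 62 of Igf1r lay in the Meis2 subcluster. Without it and the unusual cells 2 of 7 were higher, with Igfbp5 at 3.35 (2.17 to 5.27) and Insr at 1.58 (1.06 to 2.37), and Igf1r had 1.19 (0.685 to 2.04). Of the other lists, interferon response genes had 2 of 16 higher and 2 lower, barrier nutrient carriers 2 of 6 and 1, junctions 1 of 10 and 1, leukocyte adhesion 1 of 6 and 0, and vasoactive genes 0 of 7 and 1. Without the subcluster and the unusual cells these were 0 of 12 higher and 1 lower for interferon response genes, 1 of 5 and 0 for the nutrient carriers, 0 of 8 and 1 for junctions, 0 of 5 and 0 for leukocyte adhesion and 0 of 7 and 1 for vasoactive genes; no diaphragm and caveola gene and no MHC class I gene was then counted, and 1 of 4 Notch genes and 1 of 9 hypoxia and glycolysis genes was lower. Over all cells TGF-beta and BMP signalling (13 measured), matrix (13), hypoxia and glycolysis (10), Notch (5), Wnt (4), efflux carriers (3), sex-linked (2) and cell cycle (1) had none past 1.5-fold in either direction, and the IL-34 and CSF1 axis had none measured. Csf1, the other ligand of the IL-34 receptor, had 58.9 and 59.1 CPM. Il34 had 1 UMI in homozygous-labelled and 0 in heterozygous-labelled fenestrated cells, too few to compare; a 3′ tag cannot tell the lacZ allele from the normal one, so these values do not check the genotype.

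Several of the higher genes belonged to 1 or a few cells. Prl, the pituitary hormone prolactin, had 425 UMIs in homozygous-labelled and 0 in heterozygous-labelled fenestrated cells, at least 161-fold higher with 0 read as 3 counts over the fenestrated cells of the library. Of these, 418 lay in 1 cell of the Meis2 subcluster. Rarres2 and Tmem212, with 75 and 58 homozygous-labelled UMIs, and Trpm3 and Prlr, with 95 and 96, had over 80% of their UMIs in 1 cell. Nnat, a small membrane protein gene, had 68 and 5 UMIs, with 76.7% of them in 1 cell. Igfbp5, by contrast, was found in 37 of 93 homozygous-labelled and 18 of 118 heterozygous-labelled cells, at 750 and 89.8 CPM; in barrier cells its ratio was 2.05. The invariant chain gene Cd74, the only measured member of the MHC class II list, had 77 and 12 UMIs, with 57.3% of them in 1 cell, and a barrier ratio of 1.90.

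**Figure D5:**
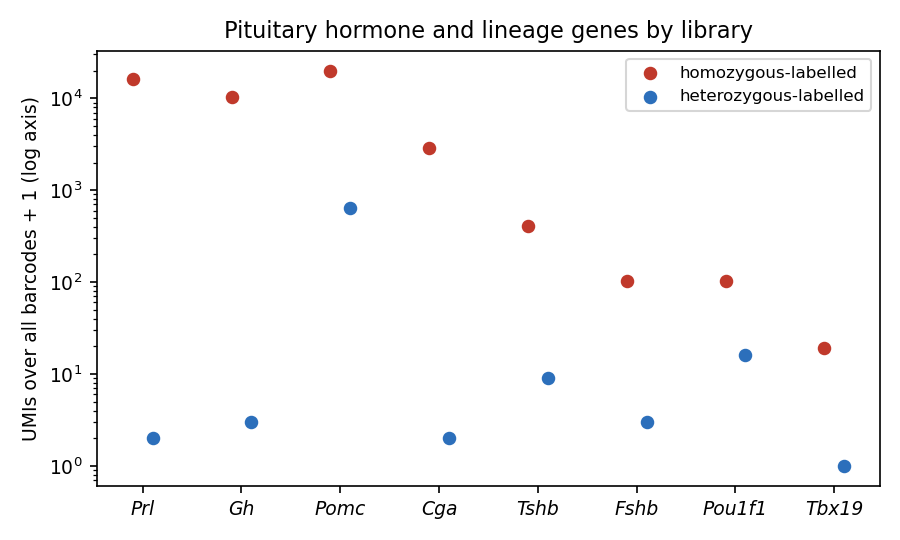
UMIs over all barcodes plus 1 (log axis) are shown for 8 pituitary hormone and lineage genes in the homozygous-labelled (red) and the heterozygous-labelled (blue) library. Prl had 16328 UMIs in the homozygous-labelled and 1 in the heterozygous-labelled library.

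Lower ratios of the haemoglobin genes also rested on few cells. Hbb-bs had 95 UMIs in homozygous-labelled and 6316 in heterozygous-labelled fenestrated cells. Hba-a1, whose reads can be shared with its near-identical copy Hba-a2, had 10 and 2513 UMIs, and 2 heterozygous-labelled cells held 7883 and 4100 haemoglobin UMIs. The unusual cells were 4 homozygous-labelled and 6 heterozygous-labelled ones, with at least 10000 UMIs or at least 50 UMIs of haemoglobin genes, Ttr or Prl. The largest, a homozygous-labelled cell of 38950 UMIs, held 6775 UMIs of Ttr and was called a doublet. Choroid plexus epithelial markers summed to 23019 CPM in homozygous-labelled and 10157 CPM in heterozygous-labelled fenestrated cells, against 24485 and 49420 CPM in barrier cells. Per fenestrated cell they had 2 to 7600 and 2 to 1371 UMIs, with medians of 9 and 13. Macrophage markers summed to 769 CPM and 407 CPM, against 935 and 1005 CPM in barrier cells. Ependymal markers summed to 619 and 18.9 CPM, against 161 and 119 CPM in barrier cells. Their median was 0 UMIs per fenestrated cell in both libraries, and 206 of the 231 homozygous-labelled UMIs lay in 1 cell. The part of all these markers in the ratios was not tested.

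When the Meis2 subcluster and the unusual cells were left out, 68 homozygous-labelled and 110 heterozygous-labelled cells remained. Of 2239 genes, 19 were then higher (0.849%) and 24 lower (1.07%), of which 9 and 11 were among the 80 and 30 above. Cyp26b1, Klf2, Nr4a1, Junb, Tcf15 and Dbp were among the lower ones. Mgp, an inhibitor of calcification, had a ratio of 3.37 (2.81 to 4.06) and Penk, the proenkephalin gene, of 5.20 (3.23 to 8.69), but over all 93 homozygous-labelled cells 1 cell held 44.3% of the UMIs of Mgp and 79.7% of those of Penk.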

How the data were processed

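The authors deposited UMI counts per gene and barcode for 2 libraries, and the file headers name Cell Ranger 5.0.0 as their source. The build is GRCm38.p6 (mm10) per the submitters' processing notes. Each deposited barcode had a total of at least 500. Features that share a symbol were summed, and 99.5% of 25827 identifiers matched GENCODE vM21. Samples were grouped by the genotype in the labels, and 0 columns of per-sample values went unused.

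The members and the 22 gene lists were chosen with earlier results of these data known. A gene can stand on more than 1 list, as Klf2 and Dll4 do. Counts were summed per library and cell class and scaled to CPM. CPM carry exact Poisson intervals, ratios exact conditional binomial intervals and shares Clopper-Pearson intervals, all at 95%. Between genotypes, the text names the 12 higher and 12 lower genes whose interval bound nearest to 1 lay farthest from 1, and between fenestrated and barrier cells 15 and 15, plus list members and gate genes. Mgp, Penk, Rarg, Nr1d1, Gja4 and the pituitary genes were chosen after their values were seen, as were the settings that leave out unusual cells or the Meis2 subcluster. Clustering used 1000 variable genes, 10 principal components and 15 neighbours. Scrublet, an alternative here, had an expected rate of 10%. Tools were Python 3.11.15, numpy 2.4.6, scipy 1.17.1, pandas 2.3.3, scanpy 1.11.5, leidenalg 0.10.2, matplotlib 3.10.9, R 4.3.3 and edgeR 4.0.16 (TMM factors only).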

Additional observations from a re-analysis of the deposited data

Results flagged for a closer look

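RNA of pituitary hormones was found in data outside the comparisons, over all barcodes of the homozygous-labelled library and at far lower counts in the heterozygous-labelled one. Prl had 16328 UMIs in the homozygous-labelled and 1 in the heterozygous-labelled library. Gh, growth hormone, had 10290 and 2 UMIs, and Cga, the common subunit of glycoprotein hormones, had 2911 and 1. Pomc, the precursor of corticotropin, which some neurons also express, had 20069 and 639. In the homozygous-labelled library 15 kept cells had at least 10 UMIs of Prl and 41 at least 10 of Gh, against 0 and 0 heterozygous-labelled cells. Among fenestrated cells, Prl had a UMI in 8 homozygous-labelled (8.60%) and 0 heterozygous-labelled cells, and in 1 of the 22 homozygous-labelled cells of the Meis2 subcluster. That 1 cell held 418 of the 425 Prl UMIs of fenestrated cells. In homozygous-labelled barrier cells Prl had a UMI in 98 cells (5.86%). Gh had a UMI in 5 homozygous-labelled fenestrated cells, 2 of them in the subcluster, and in 6.94% of homozygous-labelled barrier cells. The pituitary has fenestrated capillaries as background knowledge; the part of this RNA, or of the tissue it came from, in the ratios of fenestrated cells was not tested.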

How the results depend on the processing

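No paired analysis was possible because there is 1 library per genotype. The share of fenestrated cells in the homozygous-labelled and the heterozygous-labelled library was 8.43% and 10.9% with a mitochondrial limit of 5%, 5.61% and 8.26% with at least 2000 UMIs, and 2.46% and 4.10% with a barrier sum of 0. It was 4.45% in the heterozygous-labelled library with at least 5 UMIs of Plvap, and in the homozygous-labelled library 3.40% without the Meis2 subcluster and 3.26% without it and the unusual cells. Between genotypes, the 80 higher of 3004 measured genes became 49 of 2568 with a mitochondrial limit of 5% and 41 of 2668 without Scrublet doublets. They were 28 of 1575 with a barrier sum of 0 and 38 of 2233 without cells holding choroid plexus epithelial UMIs. They were 36 of 2608 without cells of at least 10000 UMIs and 19 of 2239 without the subcluster and the unusual cells. Higher and lower genes were 13 and 13 of 717 after thinning and 263 and 101 of 6127 with a minimum of 20 UMIs. They were 29 and 10 of 1455 with 100, and 627 and 146 of 14642 with none. Lower genes were 51 of 3004 with median-of-ratios scaling, which moved the median log2 ratio by 0.11. They were 19 of 2702 without cells rich in haemoglobin, Ttr or Prl. Between fenestrated and barrier cells, 251 genes were higher and 419 lower of 6846 with the mitochondrial limit of 5%. After thinning they were 173 and 294 of 5467, against 396 and 629 of 10017 in the main setting.

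Of 29 genes compared between genotypes, 10 changed sign under some setting. Prlr had a log2 ratio of -1.57 without doublets and without its top cell, -0.072 after thinning and -1.46 without cells of at least 10000 UMIs. Mt3 had -0.36 without doublets, -0.33 with a barrier sum of 0 and -0.46 without those large cells. Plac9a had -0.18 with a barrier sum of 0. Trpm3 had -0.40 without cells holding choroid plexus epithelial UMIs and -0.46 without the large cells. Without cells rich in haemoglobin, Ttr or Prl, Hba-a2, Hbb-bs and Hbb-bt had 0.57, 0.61 and 0.28, and 0.64, 0.74 and 0.26 when the subcluster and all unusual cells were left out. Fabp4 had -0.056 without the subcluster and -0.042 without the unusual cells too, where Cd300lg had 0.030. Ptgds had 0.10 without its top cell. The causes were not tested. Cyp26b1 ranged over -2.51 to -1.31 and Klf2 over -1.34 to -1.06 in all settings run. With 93 and 118 cells, 3004 genes reached 50 UMIs and 6127 reached 20, and no setting stands in for a second library.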

Other observations

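Some lower genes are described here, and all of them except Dbp had under 10% of their UMIs in any fenestrated cell. Rarg, Nr1d1 and Gja4 were chosen after their values were seen. Rarg, a retinoic acid receptor, had 28 UMIs in homozygous-labelled and 64 in heterozygous-labelled fenestrated cells, a ratio of 0.496 (0.306 to 0.784), against 1.06 in barrier cells. The clock-controlled gene Dbp had 11 and 47 UMIs in 9 and 23 cells, with 10.3% of them in 1 cell. Its ratio was 0.265 (0.124 to 0.519), against 0.790 (0.677 to 0.922) in barrier cells. The clock repressor Nr1d1 had 21 and 51 UMIs, a ratio of 0.467 (0.267 to 0.790), against 0.975 in barrier cells. Tsc22d3, a glucocorticoid-induced gene, had 66 and 157 UMIs and a ratio of 0.476 (0.352 to 0.639), against 1.17 (1.08 to 1.27) in barrier cells. The gap junction gene Gja4 had 13 and 41 UMIs and a ratio of 0.359 (0.177 to 0.684), against 0.756 (0.445 to 1.28) in barrier cells. Without the Meis2 subcluster and the unusual cells, Dbp and Gja4 were still counted as lower, at 0.341 and 0.427. Rarg, Nr1d1 and Tsc22d3 were then not counted, with Tsc22d3 at 0.532 (0.379 to 0.736).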
